A study of Mus musculus with 15 samples.

Results

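This report describes acetylation of histone H3 at lysine 27 (H3K27ac) at 10 nuclear receptor genes in mouse fusion-positive rhabdomyosarcoma. The genes were Nr2f1, Nr2f2 and Nr2f6 of the NR2F family, Nr4a1, Nr4a2 and Nr4a3 of the NR4A family, the glucocorticoid receptor gene Nr3c1, and Rora, Rarb and Rxra. A peak was counted for a gene when it overlapped the RefSeq span of the gene (mm10) or the 50 kb on either side. In this way 138 of the 122375 peaks in the list were assigned, and no peak fell to more than 1 of the 10 genes. Peaks were divided into promoter peaks, which lay within 2 kb of a curated start site, gene-body peaks, and flank peaks.

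The series holds 15 CUT&RUN libraries, in which an antibody directs a nuclease to cut chromatin around the protein it binds, from 2 mouse tumor models. The peak list analysed here comes from MCP H3K27ac replicate 5, which is 1 of 6 H3K27ac libraries from MCP tumors. It was tied to this library by a number in the peak names that only the description of this sample holds, and that description numbers the sample 1 where its title has 5. MCP mice carry Myf6-Cre and R26-tdTom, and are Cdkn2a(Flox/Flox) and Pax3(P3Fm/P3Fm), where the labels write the Pax3 allele as P3F, so Cre from the Myf6 locus, which is active in myogenic cells, switches on the Pax3-Foxo1 fusion (P3F) and tdTomato and deletes the tumor suppressor Cdkn2a. The nuclei came from live cells sorted from enzyme-digested tumors. The age of the mice and the number of tumors behind the library are not given in the sources used here. The other libraries, including those of the TCP model, were not analysed here, so there are no replicates, no comparison between models, and no test of a difference.

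Nuclear receptors are transcription factors with a zinc-finger DNA-binding domain, and many of them are switched by small lipophilic ligands such as steroids, retinoids and thyroid hormone. Many bind variants of the letters AGGTCA, as single copies or as repeats whose spacing selects the receptor pair. The NR2F receptors (COUP-TFs) act largely as repressors in development, the NR4A receptors are immediate early gene products that act without a classical ligand, and the glucocorticoid receptor binds a palindrome in response to cortisol or corticosterone. RORα (Rora) activates clock genes, and RARβ (Rarb) binds retinoic acid as a heterodimer with RXRα (Rxra). H3K27ac marks active promoters and enhancers, so the peaks mark candidate regulatory DNA in and around these genes. They do not measure transcripts, and a peak in a flank may belong to another gene.

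The promoter sequences of the 3 NR4A genes are shown because the genes share TGACG there, which is only a part of the cAMP response element, and differed in H3K27ac. Each sequence is from RefSeq (GRCm38.p6, the mm10 build), runs from 250 bases before the start site to 50 after it on the strand of the gene, and has matches to TGACG, or to its reverse complement CGTCA, in capitals. The Nr4a1 promoter lay at chr15:101266596-101266895 (plus strand), the Nr4a2 promoter at chr2:57123954-57124253 (minus strand), and the Nr4a3 promoter at chr4:48045055-48045354 (plus strand).
Nr4a1: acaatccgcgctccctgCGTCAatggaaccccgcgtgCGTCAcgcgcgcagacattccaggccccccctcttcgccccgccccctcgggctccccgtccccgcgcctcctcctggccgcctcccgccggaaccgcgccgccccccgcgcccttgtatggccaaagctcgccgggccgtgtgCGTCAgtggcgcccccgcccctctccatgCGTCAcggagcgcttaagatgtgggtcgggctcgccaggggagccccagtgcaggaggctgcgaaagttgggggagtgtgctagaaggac
Nr4a2: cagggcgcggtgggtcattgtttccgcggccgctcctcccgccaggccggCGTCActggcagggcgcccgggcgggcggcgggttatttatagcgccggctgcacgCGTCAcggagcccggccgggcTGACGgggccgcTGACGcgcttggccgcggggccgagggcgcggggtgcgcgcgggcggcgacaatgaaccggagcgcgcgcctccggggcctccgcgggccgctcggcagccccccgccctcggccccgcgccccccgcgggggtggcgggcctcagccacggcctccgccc
Nr4a3: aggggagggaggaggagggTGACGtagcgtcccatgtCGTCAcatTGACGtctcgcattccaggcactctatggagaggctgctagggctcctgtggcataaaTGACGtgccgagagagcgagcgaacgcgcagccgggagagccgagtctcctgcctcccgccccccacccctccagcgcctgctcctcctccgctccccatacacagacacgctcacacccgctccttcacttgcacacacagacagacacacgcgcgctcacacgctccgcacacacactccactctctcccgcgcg
Each of the 3 promoters held 4 matches, whereas 0.231% of the 32851 promoters in the same RefSeq table held 4 or more and 20.8% held at least 1. The motif contains CG and was chosen after the sequences had been seen, and the shares were not matched for CpG count. Nr4a2 and Nr4a3 carried promoter peaks within 2 kb of a start site and Nr4a1 carried none, but no peak overlapped any of the 3 printed sequences. Of the 9 promoter peaks of Nr4a2, 5 lay at its inner start site, whose sequence is not printed.

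The Rarb promoter is shown because this gene is known to respond to retinoic acid, the ligand of its own product, through a response element there. It lay at chr14:16575427-16575726 on the minus strand, and the capitals mark a direct repeat, with 5 bases between, of AGGTCA in looser form, with A or G as the first base of each copy and G or T as the third.
Rarb: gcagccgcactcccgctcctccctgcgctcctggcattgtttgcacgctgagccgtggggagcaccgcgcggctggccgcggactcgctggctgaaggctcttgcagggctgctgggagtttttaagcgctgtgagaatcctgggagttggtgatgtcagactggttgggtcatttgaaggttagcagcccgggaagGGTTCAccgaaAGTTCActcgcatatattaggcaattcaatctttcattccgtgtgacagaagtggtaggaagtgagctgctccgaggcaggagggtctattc
Such a repeat, on either strand, was found in 32 of the 32851 promoters (0.0974%), and among the promoters of the members that the table holds it was found in Rarb alone. No peak of the list lay within 2 kb of this start site.

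The strongest peaks of Nr4a2, Nr2f2, Rora and Rarb are shown as 200 bp of the plus strand centred on the summit, the position of highest signal. They lay at chr2:57117077-57117276 (an intron of Nr4a2, 2.14 kb upstream of its inner start site), chr7:70351577-70351776 (at the 3′ end of Nr2f2), chr9:69398325-69398524 (inside Ice2, beside Rora) and chr14:16483907-16484106 (an intron of Rarb).
Nr4a2 intron: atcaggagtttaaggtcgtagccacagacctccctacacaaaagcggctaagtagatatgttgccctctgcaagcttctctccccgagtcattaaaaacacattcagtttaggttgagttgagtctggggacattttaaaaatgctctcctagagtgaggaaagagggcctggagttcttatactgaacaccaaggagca
Nr2f2 3′ end: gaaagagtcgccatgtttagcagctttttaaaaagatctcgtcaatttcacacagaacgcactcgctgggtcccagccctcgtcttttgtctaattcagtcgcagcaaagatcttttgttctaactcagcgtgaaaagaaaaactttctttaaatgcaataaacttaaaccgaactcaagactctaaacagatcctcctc
Rora flank: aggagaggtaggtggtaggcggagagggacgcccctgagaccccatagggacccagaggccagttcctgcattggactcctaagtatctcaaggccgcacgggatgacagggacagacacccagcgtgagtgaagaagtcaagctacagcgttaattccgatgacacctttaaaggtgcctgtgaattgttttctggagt
Rarb intron: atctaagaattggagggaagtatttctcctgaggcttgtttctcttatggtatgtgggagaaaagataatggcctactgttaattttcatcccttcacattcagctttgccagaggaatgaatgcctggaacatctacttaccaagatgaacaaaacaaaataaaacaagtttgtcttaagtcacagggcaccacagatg
None of the 4 windows held AGGTCA, the E-box CAGCTG or the AP-1 motif TGANTCA on either strand, and so no letters are in capitals.

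Of the member peaks that did hold AGGTCA, the 3 with the highest fold enrichment are shown in the same way, with the match in capitals. They lay at chr2:57122918-57123117 (an Nr4a2 promoter peak), chr8:71370553-71370752 (a flank peak of Nr2f6) and chr9:69435354-69435553 (a flank peak of Rora). In the reference, 100% of the bases of the Nr2f6 window are masked as repeats, against 10.5% for the Nr4a2 window and 0% for the Rora window.
Nr4a2 promoter peak: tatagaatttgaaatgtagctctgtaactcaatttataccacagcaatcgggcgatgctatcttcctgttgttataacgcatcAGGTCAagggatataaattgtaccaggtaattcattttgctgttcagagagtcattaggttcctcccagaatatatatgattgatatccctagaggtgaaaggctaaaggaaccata
Nr2f6 flank peak: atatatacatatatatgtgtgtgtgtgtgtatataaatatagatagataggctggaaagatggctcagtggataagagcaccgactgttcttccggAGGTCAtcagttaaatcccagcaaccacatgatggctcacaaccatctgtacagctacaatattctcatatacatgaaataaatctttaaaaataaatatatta
Rora flank peak: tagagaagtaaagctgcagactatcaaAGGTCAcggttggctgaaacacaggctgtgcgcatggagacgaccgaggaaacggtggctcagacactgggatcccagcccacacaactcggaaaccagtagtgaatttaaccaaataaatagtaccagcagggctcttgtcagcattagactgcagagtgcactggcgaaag
The match in the Rora flank extends to AAAGGTCA, the site to which NR4A receptors bind as monomers, and it was the only member peak of 138 with that longer motif.

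Fold enrichment, as the peak caller gave it, is the signal at a summit over the background, with 1 added to each. The local IgG background was not taken below 1.055 fragments per position. At that lowest background, peaks with the same number of fragments have the same fold enrichment. The median peak of the list rested on 13 fragments at its summit, which is a relative counting error of 27.7%, and no peak of the list had fewer than 7. A region below this limit is not in the list, so the lack of a peak means not detectable at this depth. Intervals given below are 95% exact Poisson intervals from the fragments at the summit and cover counting error only. The sorted cells were checked against marker lists, each given beside the share of all genes in the same deciles by CpG count near the start site that had a promoter peak. Promoter peaks were found at 10 of 10 housekeeping genes (strongest at Ppia, most peaks within 50 kb at Ywhaz), beside 64.7%. Of the myogenic genes 4 of 12 had one (33.3%, 95% Wilson interval 13.8 to 60.9), beside 43.2%, with Pax3, the locus of the fusion, the strongest at 18.1-fold (95% interval 13.4 to 24.0) and also the one with most peaks. The myogenic genes Myod1, Myog, Myf5, Pax7, Des, Cdh15, Chrna1 and Mef2c had none within 2 kb of a start site, although Myod1 had 11 peaks and Myf5 29 peaks in the span and flanks, so several defining muscle genes had no listed promoter peak. Markers of other cell types had promoter peaks at 0 of 12 endothelial genes, beside 40.6% (Pecam1, Cdh5, Kdr, Tek, Tie1, Erg, Cldn5, Emcn, Esam, Egfl7, Sox17 and Flt1, of which Tek had most peaks nearby) and at 0 of 8 neuronal genes, beside 52.7% (Rbfox3, Tubb3, Syp, Snap25, Syt1, Map2, Stmn2 and Gad1, of which Syt1 had most). Of 10 leukocyte genes only Cd68 had a promoter peak, at 5.91-fold, beside a share of 15.2%, and those without one included Ptprc, Adgre1, Csf1r, Itgam and Cd3e. Of 8 fibroblast genes Col3a1 (13.4-fold, and the most peaks nearby) and Pdgfra (5.35-fold) had one, beside 34.1%, and Col1a1, Col1a2, Dcn, Lum, Thy1 and Fbln1 had none.

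Promoter peaks were found at 6 of the 10 nuclear receptor genes, namely Nr2f2, Nr2f6, Nr4a2, Nr4a3, Nr3c1 and Rxra (95% Wilson interval of the share 31.3 to 83.2%). Over all 21000 protein-coding genes the share was 45.6%, which lies inside that interval. The 10 genes are not a random sample, as they were chosen with earlier results of these data known. The interval is therefore not a test against all genes. Nr2f1, Nr4a1, Rora and Rarb had no promoter peak. The 28 promoter peaks were unevenly spread, as 10 lay at Nr2f2 and 9 at Nr4a2, which is 67.9% of them. Of all protein-coding genes 0.548% had 9 or more promoter peaks, a limit set after the counts of Nr2f2 and Nr4a2 had been seen. These counts depend on how the caller divides a stretch of signal. Merging peaks within 500 bp left 11 of all 20 peaks of Nr2f2 and 8 of all 16 of Nr4a2. Both genes have 2 start sites, and their promoter windows together span 8002 bp each, against 4001 bp for a gene with 1 start site.

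**Figure D1:**
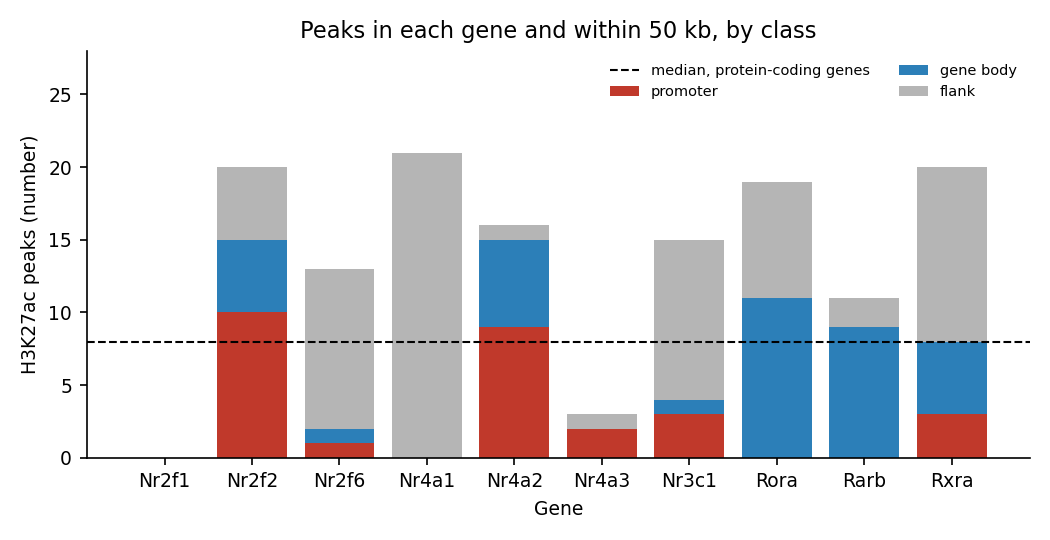
Bars give the number of H3K27ac peaks (vertical axis) in each of the 10 genes and within 50 kb, divided into promoter (red), gene-body (blue) and flank (grey) peaks, and the dashed line is the median of 8 peaks over protein-coding genes. Nr2f2 and Nr4a2 have the tallest red bars, at 10 and 9 peaks, Nr4a1 has 21 flank peaks only, and Nr2f1 has none.

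The strength of the member peaks was close to that of the list. Their median fold enrichment was 5.09 (quartiles 4.29 to 6.51), against 5.22 (4.36 to 6.51) for the whole list, and their median width was 142 bp against 163 bp. At or above the 90th percentile of the list, 8.24-fold, were 17 of the 138 peaks (12.3%). The 28 promoter peaks had a median of 5.32-fold, against 5.49-fold for the 26771 promoter peaks of the list, the 38 gene-body peaks 5.00-fold and the 72 flank peaks 5.03-fold. Promoter peaks made up 20.3% of member peaks and 21.9% of the list. Most flank peaks lay nearer to another gene, since for 22 of 72 the nearest start site was that of the nuclear receptor.

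**Figure D2:**
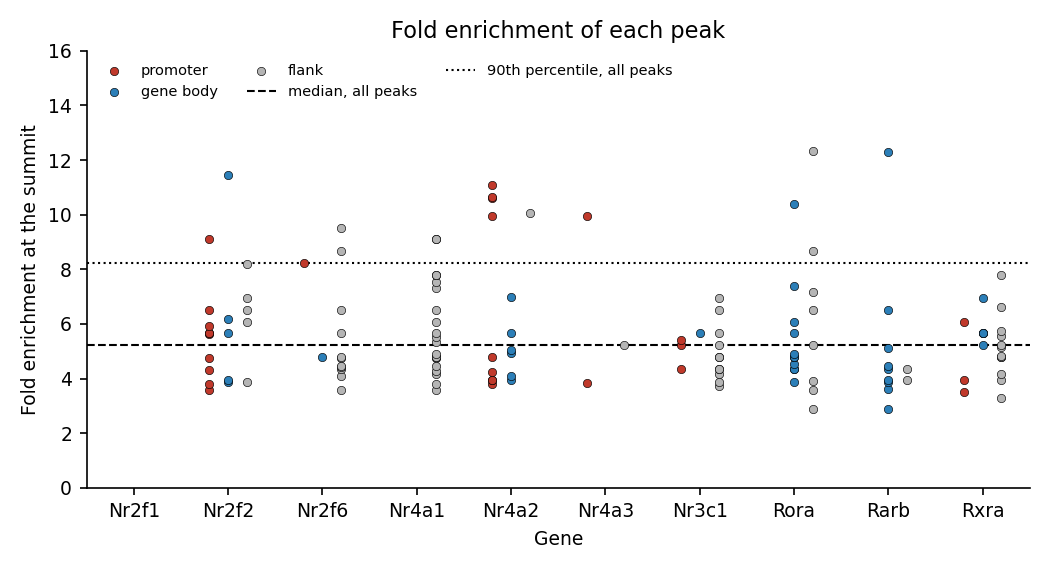
Each point is 1 peak, placed by gene and by its fold enrichment at the summit over background (vertical axis), coloured red for promoter, blue for gene-body and grey for flank peaks; the dashed line is the median of all peaks, 5.22, and the dotted line their 90th percentile, 8.24. The highest points are a flank peak of Rora and an intronic peak of Rarb, both at 12.3-fold, and no peak of Nr3c1 or Rxra reaches the dotted line.

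Nr2f2 (COUP-TFII), which is known for its part in vein, limb and muscle development, was the NR2F gene with most peaks, and Nr2f1 (COUP-TFI), known mainly from the brain, had none. Nr2f2 (gene ID 11819, chr7:70351946-70366746, minus strand) had 20 peaks, of which 10 were at promoters, 5 in the gene body and 5 in the flanks. Its density of 17.4 peaks per 100 kb was higher than that of 85.9% of protein-coding genes, whose median was 5.62.

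The outer start site of Nr2f2, that of NM_183261.3, had 5 promoter peaks, with a summit 48 bp upstream and the strongest at 9.10-fold (95% interval 5.75 to 13.8, 20 fragments) in the first intron at chr7:70365169-70365294. The inner start site, that of NM_009697.3, also had 5 promoter peaks, of which the strongest reached 5.65-fold, and 1 of them, at 1031 bp, was the widest peak at the gene. For 2 of the promoter peaks at the outer start site, including the strongest, the nearest start site was that of the noncoding gene B130024G19Rik, so they cannot be given to Nr2f2 alone. The strongest peak at the gene, at 11.5-fold (7.71 to 16.5, 27 fragments), overlapped its 3′ end with the summit 269 bp beyond it, and 2.21% of the list was stronger.

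Many peaks around Nr2f2 lay beyond the flanks. When each peak of the list was given to the gene of the nearest start site, 46 peaks fell to Nr2f2, of which 31 were more than 100 kb away and the farthest was 606 kb away. Their median fold enrichment was 5.21, close to that of the list. No share of distant peaks over all genes is given here, so these counts do not set Nr2f2 apart.

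Nr2f1 (13865, chr13:78188971-78198873, minus strand) had no peak in its span or either flank. Of all protein-coding genes 22.1% shared this. The nearest summit was 365 kb from a start site of Nr2f1, and 6.90% of protein-coding genes were farther from a peak. Its outer start site had 127 CpG dinucleotides within 500 bp, which put it in the decile of genes with the most CpG, where 72.4% had a promoter peak. No number was absent from the caller's consecutive peak numbers across the window of Nr2f1 or any other member, so no peak called there had been removed from the list.

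Nr2f6 (EAR2; 13864, chr8:71374118-71381967, minus strand), a more broadly expressed member of the family, had 13 peaks. It had 1 promoter peak, at 8.24-fold (5.08 to 12.7) with the summit 986 bp upstream of the start site, and 1 intronic peak at 4.79-fold. The other 11 were flank peaks, and for 1 of these the nearest start site was that of Nr2f6. The rest were nearest to Use1 (4 peaks), Ocel1 (3) and Babam1 (3), and the strongest flank peak (chr8:71370618-71370723), which is 575 bp from the start site of Ocel1, had 9.53-fold enrichment (6.08 to 14.3).

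The 3 NR4A genes had 3 different patterns, with peaks at both start sites and between them at Nr4a2 (NURR1), upstream peaks at Nr4a3 (NOR1), and flank peaks only at Nr4a1 (NUR77). Nr4a2 (18227, chr2:57106830-57124003, minus strand) had 16 peaks, 9 at promoters, 6 in introns and 1 in the flank. Peaks covered 3359 of the 8002 bp of its promoter windows (42.0%), the largest share among the 10 genes, followed by Nr2f2 with 29.0%.

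Of the peaks at Nr4a2, 5 reached 9.96-fold or more, a limit set after the values had been seen. The weakest of these 5 was exceeded by 4.36% of the list, and they include the flank peak described below. The strongest promoter peak (chr2:57116908-57117276) had 11.1-fold enrichment (7.51 to 15.8) from 28 fragments, and its edge but not its summit lay within 2 kb of the start site. Beside it, the peak at chr2:57115270-57116581 had 10.7-fold enrichment (7.06 to 15.5) and was 1312 bp wide. These 2 peaks lay upstream of the inner start site, that of NM_013613.2, and inside an intron of the longer transcript. At the outer start site, that of NM_001139509.1, the strongest peak had 10.6-fold enrichment (6.98 to 15.6) and lay 985 bp downstream, and the intervals of these 3 peaks overlap.

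A single flank peak of Nr4a2, 33.2 kb upstream of the outer start site at chr2:57155676-57158193, was 2518 bp wide and wider than all but 0.324% of the list. It had 10.1-fold enrichment, with a lower bound of 7.03-fold, from 33 fragments. The nearest start site was that of BB557941, so its assignment to Nr4a2 rests on the 50 kb rule.

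Nr4a3 (18124, chr4:48045078-48086447, plus strand) had 3 peaks. The strongest (chr4:48043560-48044039) reached 9.96-fold (6.42 to 14.8, 22 fragments) with its summit 1.51 kb upstream of the start site, and a second promoter peak, 832 bp upstream, had 3.85-fold enrichment (2.05 to 6.74). The third lay 80.1 kb downstream of the start site, inside Stx17 at 5.22-fold. The density of 2.12 peaks per 100 kb was below the median over protein-coding genes.

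Nr4a1 (15370, chr15:101253902-101274795, plus strand) had 21 peaks, the most of the 10 genes, and each of them was a flank peak. The nearest summit to its start site was 17.6 kb away and lay inside Atg101. For 2 of the 21 peaks the nearest start site was that of Nr4a1, 19.8 and 20.6 kb downstream of the peaks' summits, and the stronger of these (chr15:101246815-101247070) had 7.80-fold enrichment (4.81 to 12.1). The others were nearest to A330009N23Rik (7 peaks), Smim41 (7), AU021063 (3) and Atg101 (2). The 2 strongest, both at 9.10-fold (5.75 to 13.8), belonged to the group of 7 near Smim41.

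**Figure D3:**
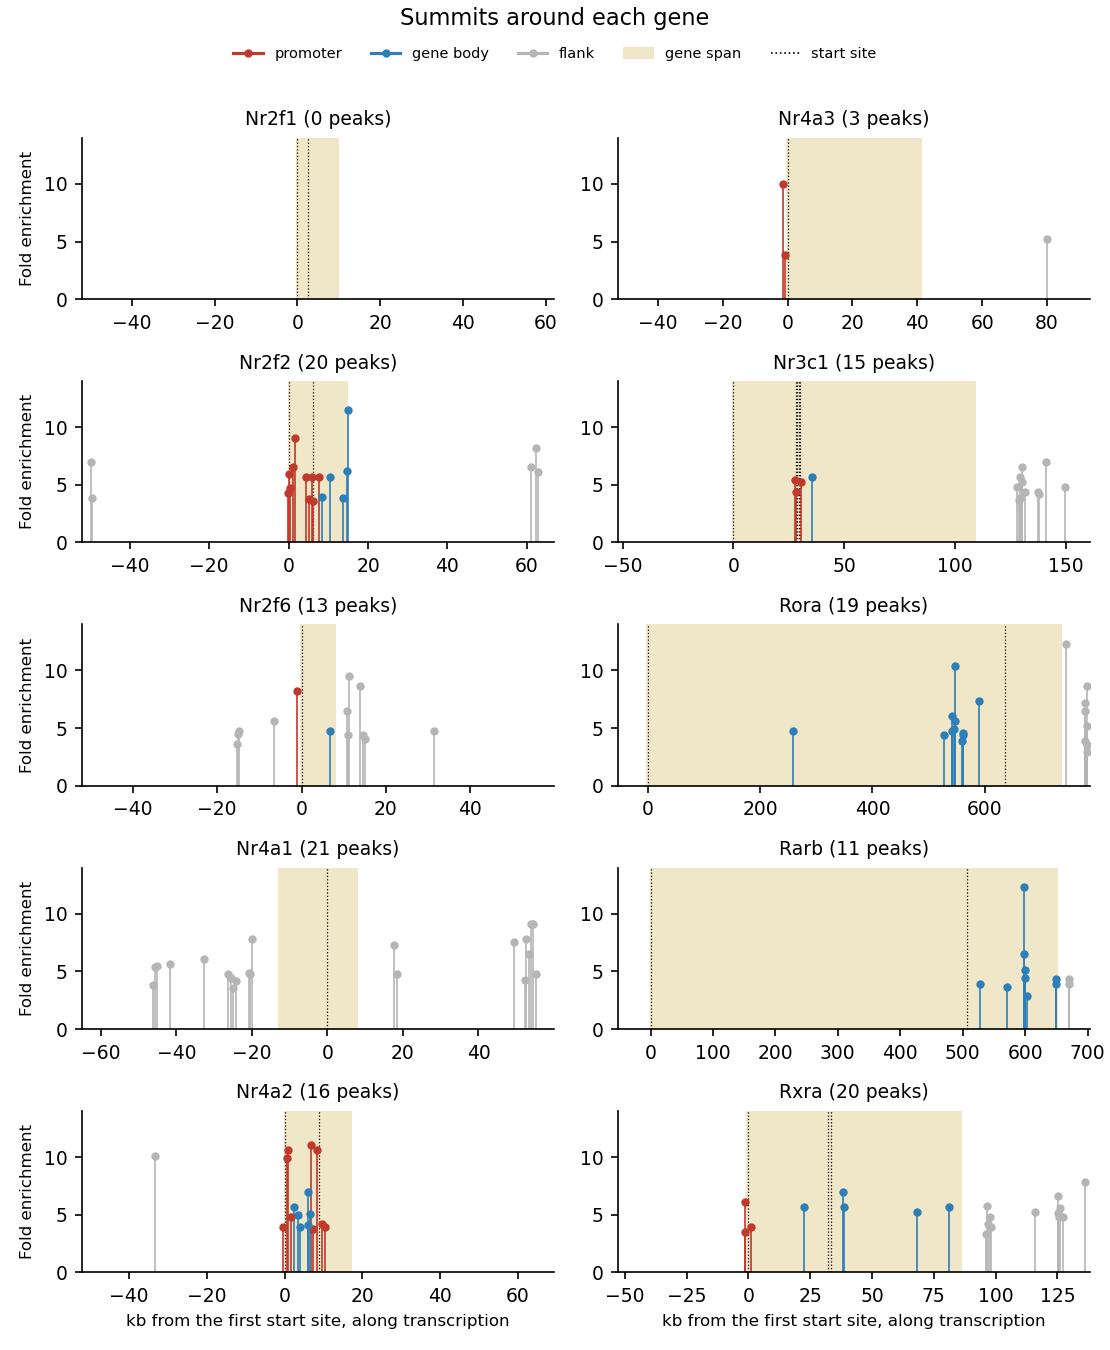
In each panel stems give the fold enrichment (vertical axis) of the peaks of 1 gene against the distance of the summit from the first curated start site in kb, counted along the direction of transcription; shading is the gene span, dotted lines are start sites, and red, blue and grey mark promoter, gene-body and flank peaks. Nr2f2 has stems along the gene and Nr4a2 around and between its start sites, whereas those within Rora and Rarb stand far downstream of the first start site.

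Immediate early genes, which are switched on within minutes of a stimulus like the NR4A genes, were compared as a list. Promoter peaks were found at 8 of 11, or 72.7% (95% Wilson interval 43.4 to 90.3), beside 69.3% of all genes in the same deciles of CpG count. Ier2 had the strongest promoter peak of the list, at 11.5-fold, and Ier3 the most peaks in its span and flanks, 47. Fosb, Egr3 and Arc had no promoter peak, as was the case for Nr4a1.

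Nr3c1 (14815), which encodes the glucocorticoid receptor, had 15 peaks, with a median of 4.79-fold against 5.22-fold for the list. Nr2f6 had the same median and Rarb a lower one, 4.36-fold. Nr3c1 had 3 promoter peaks between 4.36-fold and 5.41-fold (3.19 to 8.67 for the strongest), 1 intronic peak at 5.65-fold, and 11 flank peaks. The promoter peaks lay around 4 of its 5 curated start sites, with the nearest summit 187 bp from one, and the first start site of the gene had no peak within 2 kb. The flank peaks stood together downstream of the gene, the strongest at 6.94-fold (4.10 to 11.1), and for 11 of 11 the nearest start site was that of Nr3c1, 97.9 to 120 kb from the summits. By the nearest start site 34 peaks fell to Nr3c1, 25 of them more than 100 kb away, again without a share over all genes. None of the 15 peaks reached the 90th percentile of the list.

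Genes that glucocorticoids are known to induce had promoter peaks at 10 of 12, or 83.3% (55.2 to 95.3), beside 69.0% of all genes in the same CpG deciles. The period gene Per1 was strongest at 10.7-fold with 9 promoter peaks, and Errfi1, a brake on EGF receptor signalling, had the most peaks nearby, 81. Zbtb16 and Klf15 had no promoter peak. Of the chaperones and ligand enzymes of the glucocorticoid receptor 5 of 7 had one (71.4%, 35.9 to 91.8), beside 61.9% of all genes in the same CpG deciles, with Hsp90aa1 strongest at 6.08-fold and Ptges3 with the most peaks nearby. Hsd11b1 and Hsd11b2, the enzymes that activate and inactivate the ligand, had none.

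Rora (19883, chr9:68653404-69388246, plus strand) spans 735 kb and had 19 peaks, of which none was at a promoter, 11 were in introns and 8 in the flank. The nearest summit to a start site was 45.9 kb away. The strongest intronic peak (chr9:69199580-69199917) had 10.4-fold enrichment (6.76 to 15.3, 23 fragments) and lay 90.1 kb upstream of the inner start site, that of NM_001289916.1, among 5 peaks within 5.40 kb. Of the 11 intronic peaks 10 stood between 45.9 kb and 109 kb upstream of this start site, and 1 stood 259 kb into the gene. The strongest flank peak, at 12.3-fold (8.34 to 17.6), lay 208 bp from the start site of Ice2, and the other 7 flank peaks were nearest to Anxa2. With predicted transcript models included among the start sites, Rora had a promoter peak, and 7 of the 10 genes had one, where the share over all protein-coding genes was 46.8%.

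Clock genes had promoter peaks at 8 of 8 (95% Wilson interval 67.6 to 100%), beside 71.2% of all genes in the same CpG deciles. They were listed as genes with ROR elements, but no such element was searched for. Whether each gene carries one was not tested. The repressor gene Nfil3 was strongest at 8.51-fold, and Npas2 had the most peaks nearby, 45. Bmal1, listed under its older symbol Arntl, had 1 promoter peak at 5.17-fold and overlapped a stitched cluster of peaks of the kind described below.

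Rarb (218772, chr14:16430839-17082331, minus strand) spans 651 kb and had 11 peaks, 9 in introns and 2 in the flank, inside Top2b. The strongest (chr14:16483315-16484746) had 12.3-fold enrichment (8.38 to 17.4) from 29 fragments, was 1432 bp wide, and lay 91.5 kb downstream of the inner start site, that of NM_011243.2, whose promoter is printed above. In the list 1.52% of peaks were stronger and 1.95% wider. The other 10 peaks had between 2.90-fold and 6.51-fold enrichment. The nearest summit to a start site was 20.8 kb away, and the density of 1.46 peaks per 100 kb was the second lowest of the 10 genes after Nr2f1.

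Rxra (20181, chr2:27676445-27763319, plus strand), whose product is the shared partner of many receptors, had 20 peaks, 3 at a promoter, 5 in introns and 12 in the flank. The 3 promoter peaks belonged to the first start site and had between 3.50-fold and 6.08-fold enrichment (3.47 to 10.1 for the strongest). The other 2 start sites had none within 2 kb, and the nearest summit to them was 4.88 kb away in an intronic peak of 6.94-fold (4.10 to 11.1) and 893 bp. The flank peaks were downstream of the gene, with 6 nearest to Rxra and 6 nearest to Col5a1, and the strongest of them reached 7.80-fold.

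Genes of retinoid synthesis, breakdown and binding had promoter peaks at 2 of 14, or 14.3% (4.01 to 39.9), where all genes in the same CpG deciles had 49.5%. The 2 genes were Rdh10 (8.16-fold) and Dhrs3 (8.05-fold), which convert between retinol and retinal, and Dhrs3 had the most peaks nearby, 60. Aldh1a1, Aldh1a2 and Aldh1a3, which make retinoic acid, Cyp26a1, Cyp26b1 and Cyp26c1, which break it down, and Crabp1, Crabp2, Rbp4 and Stra6, which bind or carry retinoids, were among those with none. For coregulators of nuclear receptors the count was 11 of 14 (78.6%, 52.4 to 92.4), beside 61.3%. The corepressor gene Ncor1 was strongest at 10.4-fold, and Ncoa1, Ncoa6 and Nsd1 had no promoter peak.

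The 39 other nuclear receptor genes had promoter peaks at 11 (28.2%, 16.5 to 43.8), beside 49.3% of all genes in the same CpG deciles. Rarg, the retinoic acid receptor gene of the same family as Rarb, had the strongest promoter peak, at 13.0-fold (9.51 to 17.4), with 14 promoter peaks and 44 peaks over its span and flanks, the most of the list. The 10 genes described here and the 39 others were not compared by a test, since the 10 had been chosen with results of these data known.

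**Figure D4:**
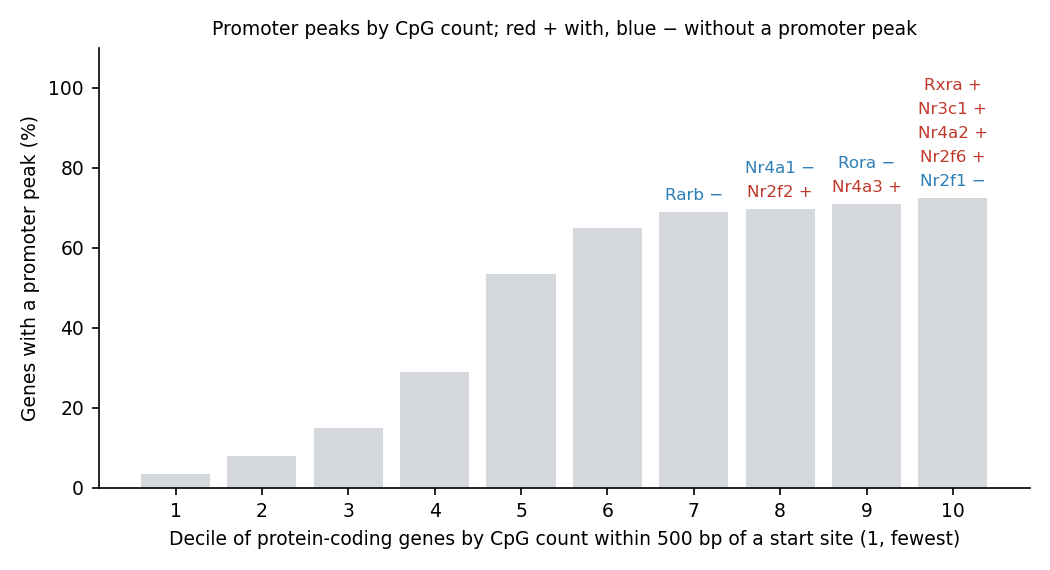
Bars give the percentage of protein-coding genes with a promoter peak (vertical axis) in each decile of genes by the number of CpG within 500 bp of a start site (horizontal axis), and names place the 10 nuclear receptor genes in their decile, red with + for those with a promoter peak and blue with − for those without. The 10 genes fall in deciles 7 to 10, where between 68.9% and 72.4% of genes had a promoter peak.

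Promoter peaks were more frequent with more CpG, and the share of genes with one was 3.33% in the lowest decile by CpG count and 72.4% in the highest. The 10 nuclear receptor genes lay in the 4 upper deciles. All genes in the same deciles had promoter peaks at 71.3% on average. This lies inside the interval around the share of the 10 genes, which is not a test because the 10 were chosen with earlier results known. Nr2f1, Nr3c1, Nr2f6, Nr4a2 and Rxra were in the highest decile, and Nr2f1 was the one of these 5 without a promoter peak.

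**Figure D5:**
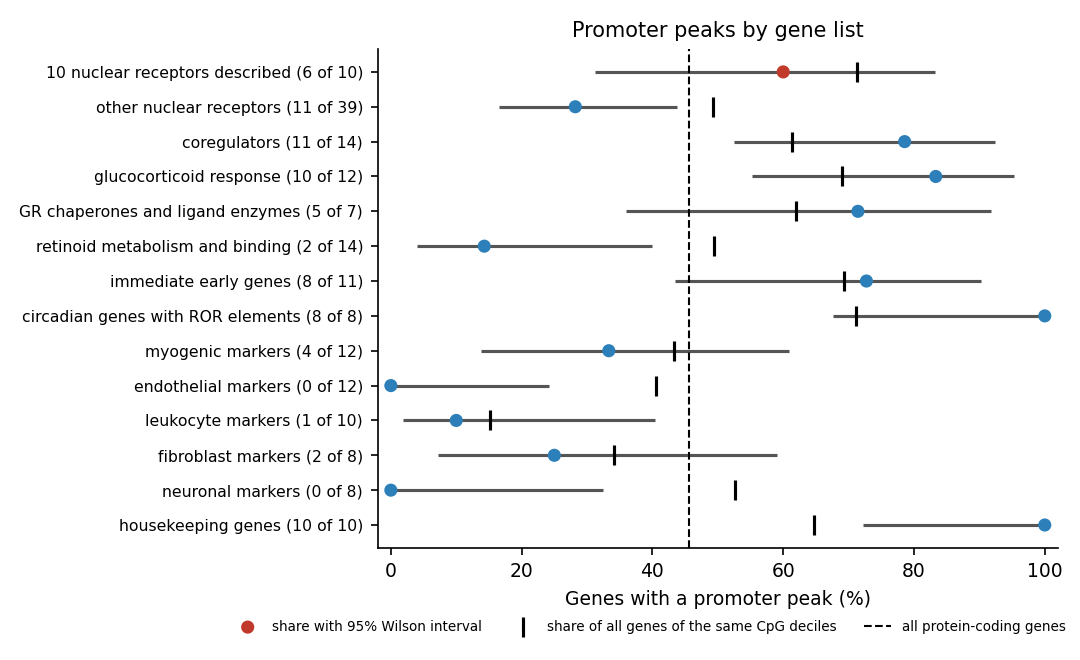
Points give the percentage of genes with a promoter peak (horizontal axis) in each gene list, lines the 95% Wilson interval, short black bars the percentage over all genes in the same deciles by CpG count, and the dashed line the 45.6% of all protein-coding genes; red marks the 10 genes described here. The intervals of the other nuclear receptors, the retinoid genes and the endothelial and neuronal markers lie below both marks. The lists were chosen with earlier results known, so the intervals are not tests.

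Peaks were also joined into stitched clusters, as is done to look for super-enhancers, by linking peaks up to 12.5 kb apart. Peaks lying wholly within 1 kb of a start site were left out first, and peaks reaching beyond that distance were kept. Each cluster was scored by the fold enrichment times the width of its peaks, summed, since no signal track was used. Of 20840 clusters 864 scored above the point at which the ranked curve reached a slope of 1. None of the 10 genes overlapped one of these, and 4.45% of protein-coding genes did. The highest-ranked cluster on a member was that of Nr4a2, with 12 peaks at rank 1698, followed by Rarb at rank 2947 and Nr2f2 at rank 3410. The Nr4a2 cluster includes the promoter peak of 1312 bp that begins 232 bp from the inner start site. When peaks were linked up to 5 kb, the Nr4a2 cluster ranked 1408 of 30479 and was above the limit.

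Within 50 kb, Nr4a1 and Rora had a cluster above the limit, as had 8.57% of protein-coding genes. That of Rora ranked 273, with 55 peaks over 55.4 kb around Anxa2, and that of Nr4a1 ranked 436, with 21 peaks over 22.7 kb near Smim41. Neither touched the nuclear receptor gene.

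Motif letters were counted in the 200 bp on each summit and on both strands. AGGTCA was found in 19 of 138 member peaks (13.8%, 95% Wilson interval 8.99 to 20.5), against 12.9% of the list and 13.0% of windows 2 kb from the member summits. AAAGGTCA, which contains AGGTCA, was found in 1 member peak (0.725%), against 1.14% of the list. The direct repeat of AGGTCA with 1 base between, a site of RXR and NR2F dimers, and the glucocorticoid receptor palindrome, AGAACA and TGTTCT with 3 bases between, were found in 0 of 138, which allows a share of up to 2.17% by a floor of 3 counts (the upper Wilson limit was 2.71%), where the list had 0.0343% and 0.00572%. The E-box CAGCTG, bound by MYOD1, was found in 13 (9.42%, against 9.97% of the list) and the AP-1 letters TGANTCA in 10 (7.25%, against 7.99%). Each of these was found in 6.16% of the windows 2 kb from the member summits. In windows 2 kb from all summits of the list the shares were 9.08% for the E-box and 6.21% for AP-1. The list's share lay inside the interval of the member peaks for each of the 6 motifs. Wilson intervals over member peaks treat them as independent, although many are neighbours at the same gene and merging within 500 bp left 76. They are therefore too narrow to serve as a test. Of the 19 peaks with AGGTCA, 4 were at Nr2f6, 4 at Nr4a1, 3 at Rxra, and 2 each at Nr2f2, Nr4a2, Nr3c1 and Rora, and Nr4a3 and Rarb had none. The summit lay in repeat-masked bases in 14.5% of member peaks (9.58 to 21.3) and in 19.3% of the list.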

How the data were processed

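H3K27ac CUT&RUN was measured on sorted MCP tumor cells. The authors aligned reads to mm10 and called peaks against the IgG library; the labels name MACS2 and the methods an earlier MACS, and the source of the difference was not resolved. The deposited list gives for each peak a fold enrichment over background (a linear ratio), −log10 p-value and q-value, a score that is the whole part of 10 times −log10 q, and the summit. Read counts were not used here. A whole number of fragments at the summit was recovered from fold and p-value for 99.999% of the 122375 peaks (tolerance 0.01) and was the only solution for 97.21%.

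Peaks were set against RefSeq GRCm38.p6, with curated transcripts giving start sites, and 1 bp counted as overlap. Sequences and CpG counts were read with pysam 0.24.0 and intervals computed with scipy 1.17.1. Motif searches and the recovery were tested on simulated data. Each member was named, with its strongest promoter and other peaks; from each other list the gene with the strongest promoter peak, that with most peaks within 50 kb and, in lists of up to 14, those without a promoter peak. Some genes that this rule names are not reported here. Other genes are named because a peak of a member lay nearest to them or because a count turned on them, and were chosen after their values were seen. The members and lists were chosen with earlier results of these data known. Alternatives were stricter peak limits, other windows and flanks, summit overlap, predicted transcripts, nearest start sites, merging and stitching distances.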

Additional observations from a re-analysis of the deposited data

How the results depend on the processing

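Counts followed the limit on peaks. Of the 122375 peaks of the list, 58665 had −log10 q of at least 5 and 31097 were in the strongest 25%. The medians of the whole list at these limits are not given here. With −log10 q of at least 5, member peaks numbered 69, of which 15 were at promoters, 19 in gene bodies and 35 in flanks, with a median of 6.51-fold. With the strongest 25% of peaks these were 33, 8, 6 and 19, with a median of 8.24-fold, Nr3c1 and Rxra no longer had a promoter peak, which left 4 of 10 members with one where all protein-coding genes had 29.3%, and AGGTCA was in 21.2% of member peaks (95% Wilson interval 10.7 to 37.8), against 12.4% of the list. Promoter peaks numbered 18 within 1 kb of a start site. Flank peaks numbered 36 within 25 kb and 208 within 100 kb, the latter giving 274 peaks in all. Merging peaks within 500 bp left 76. Stitching at 5 kb put 1 member in a cluster above the limit. The other 33 recomputed values over all members together stayed within 1.5 times the count reported, or within the 95% interval of the median or share. Of 120 counts for single genes 53 moved by more than 1.5 times. Nr4a2 had 4 promoter peaks at the q limit and 5 within 1 kb, and Nr2f2 had 2 among the strongest 25%. Nr4a1 had 10 peaks within 25 kb, Nr2f6 35 within 100 kb, and Nr3c1 5 at the q limit. No paired analysis was possible because the peak list holds 1 library, and no replicate could be left out. A median of 13 fragments at the summit limits each fold enrichment.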
